A study of Mus musculus with 10 samples.

Results

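Liver libraries of the Berlin Fat Mouse Inbred line (BFMI, BFMI860-12/Hber) had far lower read shares of 84 autosomal genes than C57BL/6NCrl (B6N) libraries. These genes were selected on their level in the inbred parents alone: with CPM, the reads of a gene per 1000000 assigned reads of its library, the lower of the B6N values was at least 1 CPM and at least 4 times the higher of the BFMI values. Of 12319 autosomal genes at that floor, 92 (0.747%) met the rule, and 8 of them were set aside because their symbols begin with Serpin, H2-, Cyp, Rpl, Rps, Hb, Mup, mt- or Cfhr. The table lists 41388 genes in all, and the reverse rule, with the same fold and floor, took 48 genes. The strain difference of the 84 genes is therefore the way they were chosen and is described without a test. Reads of both strains were aligned to the same mouse reference genome. The part of sequence differences between the strains in the read counts was not tested. Tests are given only between the reciprocal F1 groups, which the rule did not use.

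Liver RNA came from 10 mice aged 10 weeks. The F1 males born to BFMI females and sired by B6N males (matBFMI, n = 3) and the F1 males born to B6N females and sired by BFMI males (patBFMI, n = 3) were raised by their own mothers, came from different dams within each group, and received a high fat diet from day 21 to day 70. The inbred BFMI animals (1 male, 1 female) and the inbred B6N animals (1 male, 1 female) were on a standard breeding diet by the protocol in the sample records and on a high fat diet by the series' design text and the paper, so that diet and cross cannot be told apart between F1 and parents. Reads assigned to genes numbered between 46988713 and 96023811 per library. By the column headers, lane 6 held the matBFMI libraries and lane 5 the patBFMI libraries, so cross and lane cannot be told apart either. The BFMI male was on lane 1, and the BFMI female and both B6N animals were on lane 4. All 15 hepatocyte markers examined (among them Alb, Apoa1 and Ttr) were detected in each library, with a summed level of 81633 to 117593 CPM. In 6 libraries, namely the inbred ones, matBFMI 1 and patBFMI 1, the predicted gene Gm10800 reached 3304 to 23250 CPM, against 47.1 to 272.6 CPM in the other 4 F1 libraries.

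BFMI is a line selected for fatness that becomes obese early in life, and B6N is a lean reference strain. In a cross between inbred strains every F1 animal carries 1 allele of each parent at autosomal genes. When the level of a transcript is set by variants at the gene itself, both alleles are expected to contribute separately and the F1 lies near the average of the parents (mid-parent). A level set by diffusible factors, by dominant variants or by the physiological state can lie anywhere. The position of each F1 library was therefore expressed on a scale on which 0 is the BFMI mean, 1 the B6N mean and 0.5 the mid-parent level, computed on CPM.

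Among the 84 genes, 56 were protein coding, 9 were processed pseudogenes, 8 were small nuclear RNAs (snRNAs), 4 were antisense RNAs, 3 were processed transcripts, 3 were long intergenic RNAs and 1 was an unprocessed pseudogene in the GENCODE annotation. The snRNAs made up 9.52% of the genes, against 0.284% of the 12319 genes at the floor, and protein coding genes made up 66.7%, against 87.8%. Chromosome 3 held 14 of them, among these a run of 6 amylase genes and a run of 5 snRNA copies. Chromosome 4 held 12 and chromosome 6 held 9, while chromosomes 13 and 16 held none. Shares per chromosome over all genes are not given, so nothing is read from these counts. The genes of lowest fold were Gm20594 (4.06), Lpin1 (4.09) and Mug2 (4.24), given as the lower B6N over the higher BFMI value. Just outside the threshold lay Adgb (3.98), Iah1 (3.97) and Zfp825 (3.82). At the other end stood Olfr1033 (92.7) and Gm22513 (81.9), and the median was 8.09. No gene was at 0 counts in both BFMI libraries. The B6N male library weighed most on the choice: without it the rule took 146 genes in place of 84. Of the hepatocyte, Kupffer cell, stellate cell, endothelial, cholangiocyte, adipocyte, lymphocyte and intestinal marker lists, and of the lists of lipogenic genes, fatty acid oxidation genes, clock genes and interferon response genes, 0 genes met the rule. The list of pancreatic enzymes gave 16.

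The largest set by amount of RNA consisted of secreted and metabolic liver proteins. C4b (ENSMUSG00000073418, chr17:34728380-34743882, minus strand) encodes complement component C4, the precursor of C4b in the classical and lectin pathways. Its level was 760.4, 753 and 954 CPM in matBFMI livers and 765, 738 and 897 CPM in patBFMI livers, with 268 and 263 CPM in the BFMI male and female and 1463 and 1298 CPM in the B6N male and female. All 6 F1 values lay between those of the strains and around the mid-parent level of 823 CPM, at a mean position of 0.49. The related gene C4a, which matched over 5378 bases of transcript, was not taken by the rule, with 60.6 and 36.9 CPM in BFMI and 176 and 146 CPM in B6N, and reads may have been shared between them. Mug2, a murinoglobulin that traps proteases in plasma, had 403, 516 and 450.4 CPM in matBFMI, 512, 445 and 571 CPM in patBFMI, 165 and 139 CPM in BFMI and 702 and 735 CPM in B6N. Its F1 libraries also lay between the strains, at a mean position of 0.58. The neighbouring paralogue Mug1 was at 3982 and 3429 CPM in BFMI and 3118 and 2376 CPM in B6N, so the strain difference of Mug2 did not extend to it. In bulk tissue, fewer cells of a type and less RNA per cell cannot be told apart for any of these genes.

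**Figure D1:**
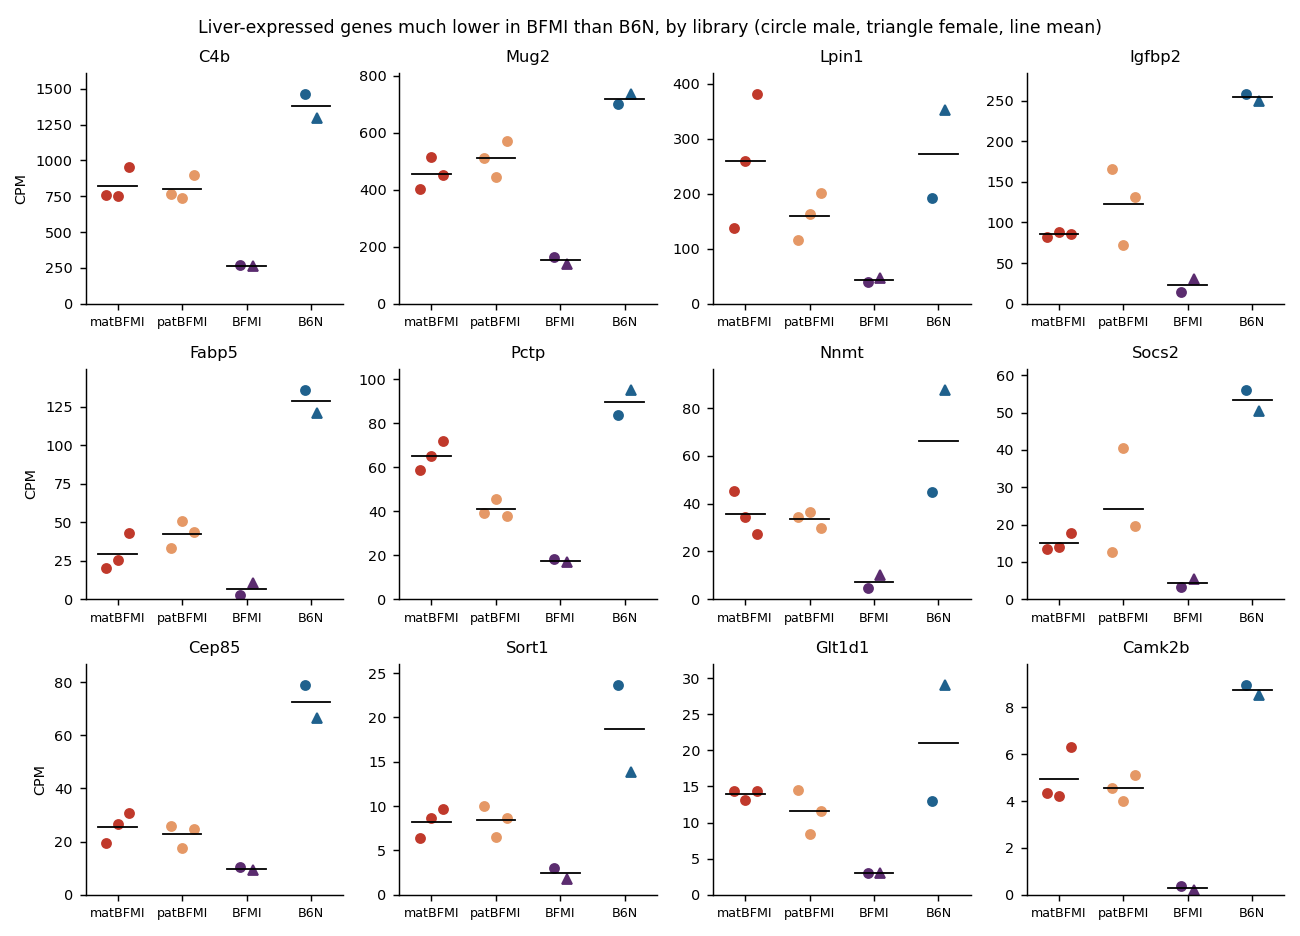
Levels of 12 genes in CPM (y axis, linear, from 0) in matBFMI, patBFMI, BFMI and B6N livers (x axis); each point is a library, circles are males, triangles are females and the line is the group mean. C4b, Mug2 and Camk2b show the F1 libraries between the strains, whereas the F1 values of Lpin1 spread from 116 to 381 CPM and overlap those of B6N.

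Genes of lipid handling were among the most abundant. Lpin1 encodes lipin 1, a phosphatidate phosphatase of triglyceride synthesis that also acts as a transcriptional coactivator. It had 138, 260.1 and 381 CPM in matBFMI, 116, 162 and 201 CPM in patBFMI, 39.6 and 47.2 CPM in BFMI and 193 and 352 CPM in B6N. The F1 values spread over a wide range, from position 0.32 to 1.47, and 1 matBFMI library exceeded both B6N animals. Fabp5, a fatty acid binding protein of the cytosol, was at 20.2, 25.6 and 42.8 CPM in matBFMI and 33.5, 50.8 and 43.4 CPM in patBFMI, against 2.7 and 10.7 CPM in BFMI and 136 and 121 CPM in B6N. All 6 F1 livers were below the mid-parent level of 67.6 CPM. Pctp, the phosphatidylcholine transfer protein, had 18.5 and 16.7 CPM in BFMI and 83.7 and 95.3 CPM in B6N, and its F1 levels are given with the comparison of the crosses. Sort1, the sorting receptor sortilin whose human gene lies at a locus for plasma LDL cholesterol, was found at 6.41, 8.63 and 9.67 CPM in matBFMI, 10, 6.46 and 8.68 CPM in patBFMI, 3.02 and 1.8 CPM in BFMI and 23.6 and 13.9 CPM in B6N. None of its F1 libraries reached the mid-parent level. An overlapping gene on the opposite strand, Gm12523, may share reads with Sort1, because whether counting used the strand is not stated.

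Several genes act in growth factor and growth hormone signalling. Igfbp2, a secreted carrier of insulin-like growth factors, reached 82, 88.4 and 85.4 CPM in matBFMI and 165, 72.8 and 132 CPM in patBFMI, with 14.6 and 30.7 CPM in BFMI and 258 and 250.0 CPM in B6N. The matBFMI values stayed close together and the patBFMI values spread on both sides of the matBFMI range. Socs2, which dampens growth hormone receptor signalling, had 13.4, 14.1 and 17.8 CPM in matBFMI and 12.6, 40.5 and 19.6 CPM in patBFMI, against 3.25 and 5.37 CPM in BFMI and 56.1 and 50.5 CPM in B6N. Here 1 patBFMI library, replicate 2, stood above the others. Erbb4, a receptor of neuregulins, showed 4.53, 3.45 and 4.4 CPM in matBFMI, 4.6, 4.01 and 3.83 CPM in patBFMI, 0.781 and 0.471 CPM in BFMI and 5.29 and 6.21 CPM in B6N, so that all F1 livers were above its mid-parent level of 3.19 CPM. The calcium/calmodulin kinase subunit gene Camk2b had 4.32, 4.22 and 6.3 CPM in matBFMI, 4.54, 3.99 and 5.11 CPM in patBFMI, 0.375 and 0.216 CPM in BFMI and 8.94 and 8.53 CPM in B6N. Its F1 mean position was 0.53 on CPM, close to mid-parent. On the deposited RPKM the matBFMI and patBFMI means, 0.451 and 0.519, were below mid-parent, with 0.126 in BFMI and 1.25 in B6N.

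Enzymes of nicotinamide, steroid and sugar metabolism were also in the set. Nnmt, which methylates nicotinamide with S-adenosylmethionine, had 45.5, 34.2 and 27.5 CPM in matBFMI, 34.6, 36.4 and 29.7 CPM in patBFMI, 4.72 and 10.1 CPM in BFMI and 44.8 and 87.7 CPM in B6N. The B6N female was well above the B6N male, whose value lay within the F1 range. Nmnat3, a mitochondrial enzyme of NAD synthesis, was at 2.35, 2.9 and 3.51 CPM in matBFMI, 2.59, 2.27 and 2.7 CPM in patBFMI, 0.198 and 0.0981 CPM in BFMI and 2.51 and 4.47 CPM in B6N, and all F1 values exceeded mid-parent. Dhrs9, a short-chain dehydrogenase of retinol and 3-alpha-hydroxysteroids, had F1 values of 1.07 to 3.17 CPM, with 0.469 and 0.235 CPM in BFMI and 8.47 and 8.26 CPM in B6N. Acpp, prostatic acid phosphatase, had F1 values of 0.788 to 2.38 CPM, with 0.302 and 0.353 CPM in BFMI and 6.76 and 11.5 CPM in B6N. For both of these enzymes every F1 liver was below mid-parent. The glycosyltransferase domain gene Glt1d1 was found at 8.48 to 14.5 CPM in F1 livers, at 2.95 and 2.98 CPM in BFMI and at 13 and 29 CPM in B6N. Cep85, which encodes a centrosomal protein, was at 17.6 to 30.8 CPM in F1 livers, 10.6 and 9.2 CPM in BFMI and 78.8 and 66.6 CPM in B6N, at a mean F1 position of 0.23.

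Genes with a known place in immune cells were few and low. Clec2h, a C-type lectin-like gene of the natural killer gene complex on chromosome 6, had 4.07, 2.64 and 5.02 CPM in matBFMI, 2.97, 4.19 and 8.68 CPM in patBFMI, 0.156 and 0.0785 CPM in BFMI and 8.64 and 2.77 CPM in B6N. The B6N male and 1 patBFMI male were highest, and the B6N female was within the F1 range. Cebpe, a transcription factor of granulocyte maturation, was at 1.91, 1.93 and 2.4 CPM in matBFMI, 1.59, 1.49 and 1.78 CPM in patBFMI, 0.0312 and 0.0196 CPM in BFMI and 3.34 and 1.89 CPM in B6N. Erbb4, Nmnat3 and Cebpe were the 3 genes of the set with all F1 libraries above mid-parent on CPM. On the deposited RPKM, the matBFMI and patBFMI means of all 3 genes were below mid-parent. Ifi213, an interferon-inducible PYHIN family gene, had F1 values of 0.271 to 0.763 CPM, against 0.198 and 0.196 CPM in BFMI and 1.33 and 2.47 CPM in B6N, and it shares 96.1% identity over 983 bases with Ifi208. Card6, which has a caspase recruitment domain, had F1 values of 1.72 to 3.23 CPM, with 0.437 and 0.51 CPM in BFMI and 4.54 and 5.6 CPM in B6N. The summed level of the 15 Kupffer cell and macrophage markers was 290.5 to 372 CPM in the F1 animals, 365 and 419 CPM in the BFMI animals and 558 and 607 CPM in the B6N animals, and its part in these results was not tested.

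Across the 84 genes the median F1 position on CPM was 0.29, and in the opposite set of 48 genes that were much higher in BFMI it was 0.61. The parental values that set this scale also chose both sets, so nothing is read from these medians. All 6 F1 libraries lay between the strains for 40 genes, at or below the higher BFMI value for 12 genes, and across these ranges for the remaining 32. All 6 were below mid-parent for 46 genes and above it for 3, while among the 12319 genes at the floor 15.5% were entirely below and 11.1% entirely above. The mid-parent level comes from the values that chose the genes, so nothing is read from this difference. The 16 pancreatic enzyme genes sat at the BFMI level, and without them the median was 0.36 and 30 of 68 genes were entirely below mid-parent. The position also depends on the scale. On CPM the mean F1 position of 64 genes was below mid-parent, on log2(CPM + 0.5) that of 42 genes with a median of 0.50, and on the deposited quantile normalized RPKM that of 81 genes with a median of 0.092.

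**Figure D2:**
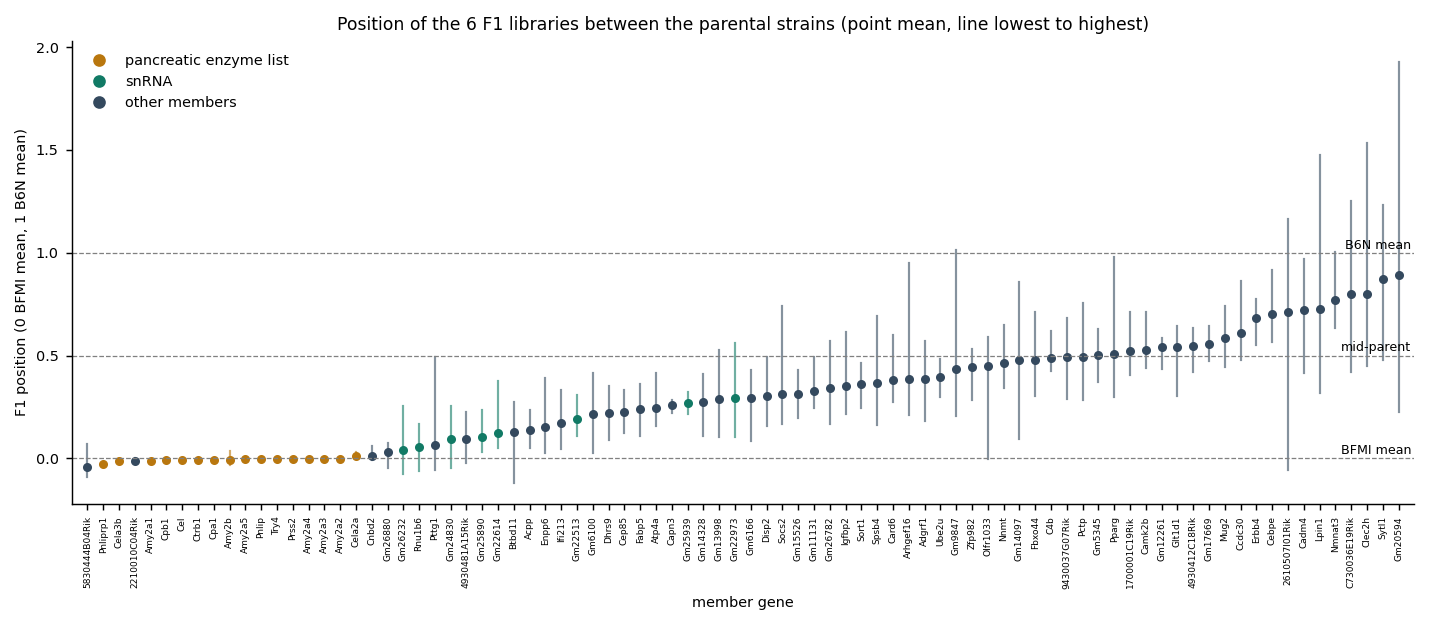
Mean position of the 6 F1 libraries between the BFMI mean (0) and the B6N mean (1) on CPM (y axis) for each of the 84 genes (x axis, ordered by the mean); lines run from the lowest to the highest library. The 16 genes of the pancreatic enzyme list lie at 0, the 8 snRNA genes between 0.040 and 0.29, and the other genes from -0.040 to 0.89.

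Outside the pancreatic list, few genes had F1 levels close to BFMI. Cnbd2, a gene with a cyclic nucleotide binding domain, had 0.366, 0.478 and 0.329 CPM in matBFMI and 0.605, 0.294 and 0.322 CPM in patBFMI, against 0.375 and 0.294 CPM in BFMI and 5.93 and 3.83 CPM in B6N. Its mean position was 0.014, and 5 other genes overlap it in the annotation, Scand1 among them, with which it shares 203 bases. Pttg1, which encodes securin, the inhibitor of separase in mitosis, was at 1.65, 1.51 and 2.29 CPM in matBFMI, 1.32, 1.14 and 8.45 CPM in patBFMI, 1.8 and 1.96 CPM in BFMI and 15.3 and 15.1 CPM in B6N. For Pttg1, 5 F1 livers were near BFMI and patBFMI 3 alone was near mid-parent. The long intergenic RNA Gm26880 had F1 values of 0.0783 to 0.337 CPM with 0.219 and 0.137 CPM in BFMI and 2.31 and 2.34 CPM in B6N, and it resembles Gm42031 at 95.9% identity. The antisense RNA 4930481A15Rik, which overlaps Drap1, was at 0.0194 to 0.719 CPM in the F1 livers, 0.0937 and 0.0785 CPM in BFMI and 3.16 and 2.58 CPM in B6N. The processed transcript 5830444B04Rik, which had the lowest mean position of the 84 genes (-0.04), was at 0.017 to 0.208 CPM in the F1 livers, 0.167 and 0.0785 CPM in BFMI and 1.07 and 1.55 CPM in B6N, and rests on 1 to 11 reads in each F1 library. Enpp6, a choline phosphodiesterase gene at a mean position of 0.15, had F1 values of 0.39 to 1 CPM, against 0.396 and 0.294 CPM in BFMI and 2.13 and 1.94 CPM in B6N, with patBFMI 1 the highest.

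At the other end, a small number of genes had a mean F1 position on CPM well above mid-parent. Sytl1, which encodes a synaptotagmin-like Rab27 effector, had 1.72, 1.9 and 2.13 CPM in matBFMI, 2.61, 1.16 and 2 CPM in patBFMI, 0.208 and 0.235 CPM in BFMI and 2.22 and 2.11 CPM in B6N. The long intergenic RNA C730036E19Rik had 5.5, 5.26 and 4.79 CPM in matBFMI, 4.27, 3.03 and 7.43 CPM in patBFMI, 0.948 and 0.667 CPM in BFMI and 7.49 and 4.7 CPM in B6N. In both genes the F1 range overlapped or enclosed the B6N values. For 2 others the mean position was lower, 0.72 for Cadm4 and 0.61 for Ccdc30. Cadm4, a cell adhesion gene, had F1 values of 1.21 to 2.29 CPM, with 0.292 and 0.49 CPM in BFMI and 2.51 and 2.19 CPM in B6N, and Ccdc30, a coiled-coil gene, had F1 values of 1.24 to 2.04 CPM, with 0.312 and 0.177 CPM in BFMI and 2.56 and 2.09 CPM in B6N. The highest mean position belonged to Gm20594 (0.89), whose F1 values were 0.861, 0.425 and 0.485 CPM in matBFMI and 0.662, 1.94 and 1.73 CPM in patBFMI, with 0.198 and 0.255 CPM in BFMI and 1.04 and 1.19 CPM in B6N. It resembles the mitochondrial ribosomal RNA gene mt-Rnr2 at 88.4% identity over 439 bases, so its reads are uncertain. On the deposited RPKM, the matBFMI and patBFMI means of Sytl1, C730036E19Rik, Cadm4, Ccdc30 and Gm20594 were all below mid-parent. With the male parents alone, 23 of the 84 genes moved in position by more than their spread (SD) over the F1 libraries. On the deposited RPKM 58 genes did so, on log2(CPM + 0.5) 50 did, and with TMM factors 0 did.

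The digestive enzymes of the exocrine pancreas were 16 of the 84 genes, with a median fold of 30.8 and a highest of 56.3, against a median of 6.84 over the other 68 genes. Acinar cells of the pancreas make these enzymes in very large amounts and secrete them into the gut, and the exocrine pancreas is their main source. Of 41 listed enzyme and acinar genes in the table, 16 met the rule: the amylase genes Amy2a1 to Amy2a5 and Amy2b, the lipases Pnlip, Pnliprp1 and Cel, the carboxypeptidases Cpa1 and Cpb1, the trypsinogens Prss2 and Try4, the chymotrypsinogen Ctrb1 and the elastases Cela2a and Cela3b. Of the 25 listed genes that did not meet the rule, both B6N libraries exceeded both BFMI libraries for 19. The share over all autosomal genes at the floor was 20.9%. Erp27 went the other way, with 0.0909 and 0.298 CPM in B6N and 0.948 and 0.981 CPM in BFMI. Ptf1a had 0 reads in both B6N libraries and 1 read in each BFMI library. Cela1 overlapped between the strains, with 13.5 and 25.5 CPM in B6N and 17 and 28.4 CPM in BFMI. Pancreatic lipase (Pnlip) had 0.0183, 0 and 0 CPM in matBFMI, 0.113, 0 and 0 CPM in patBFMI, 0.0521 and 0.118 CPM in BFMI and 4.54 and 25 CPM in B6N. Amy2a3, an amylase, was at 0.055, 0 and 0.0194 CPM in matBFMI, 0.189, 0.0196 and 0.017 CPM in patBFMI, 0.0521 and 0.0981 CPM in BFMI and 4.84 and 34.8 CPM in B6N. In both genes the 8 other livers stayed far below the B6N livers, and the B6N female was far above the B6N male.

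Summed over the 16 genes, the level was 0.605, 0.337 and 0.678 CPM in matBFMI, 1.59, 0.489 and 0.492 CPM in patBFMI, 1.25 and 1.55 CPM in the BFMI male and female, and 43.1 and 275 CPM in the B6N male and female. The B6N female exceeded the B6N male in each of the 16 genes, by 4.64 to 7.95 times with a median of 6.11, and in 40 of the 41 listed genes. For the 68 other genes the median ratio of female to male was 1.03. The gene 2210010C04Rik, chosen after its values were seen, lies at chr6:41030268-41035509, minus strand, in 1 run with Try4 and Prss2, and had the same pattern, with F1 values of 0 to 0.0946 CPM, 0.135 and 0.0196 CPM in BFMI and 1.02 and 8.09 CPM in B6N. Over all 16 genes the F1 libraries held at most 84 reads and the BFMI libraries at most 120, and 0 to 8 of the genes were at 0 counts in each F1 library. In contrast Amy1, the amylase gene of salivary gland and liver in the same cluster on chromosome 3, was at 291, 306 and 293 CPM in matBFMI, 318, 285 and 271 CPM in patBFMI, 345 and 352 CPM in BFMI and 228 and 231 CPM in B6N. The part of pancreatic tissue or pancreatic RNA in the 2 B6N livers in these values was not tested. The 3717 bases of Amy2a2, Amy2a3 and Amy2a4 are identical in the annotation, and the values of these 3 genes are therefore not independent.

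**Figure D3:**
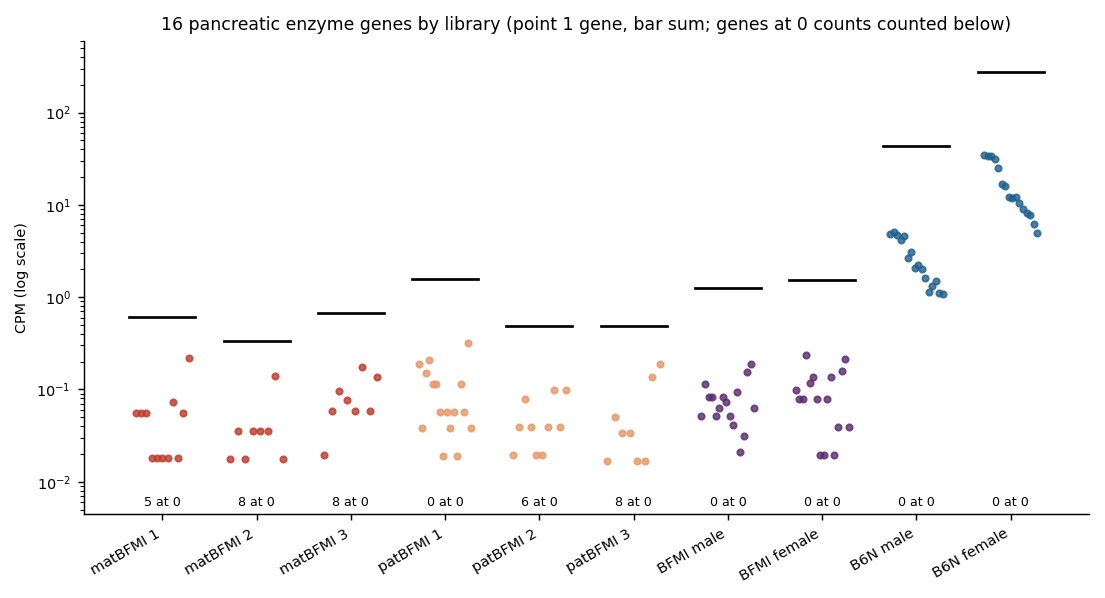
Levels of the 16 pancreatic enzyme genes in CPM (y axis, log scale) in each library (x axis); each point is a gene with at least 1 count, the bar is the sum over the 16 genes, and the number of genes at 0 counts stands below. The sums are 43.1 CPM in the B6N male and 275 CPM in the B6N female, and at most 1.59 CPM elsewhere.

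The 8 snRNA genes are copies of the spliceosomal RNAs U1 and U2. U1 pairs with the 5′ splice site of an intron and U2 with the branch point, and both RNAs come from multiple gene copies whose reads cannot be assigned with certainty. Their sequences are shown because the copies differ at few bases. Transcripts are those of GENCODE on GRCm38. Capitals mark ACTTACCTG from position 3, the stretch of U1 that pairs with the 5′ splice site, and GTAGTA from position 33, the stretch of U2 that pairs with the branch point.
Gm22513 (U1, chr12:54696782-54696945, plus strand): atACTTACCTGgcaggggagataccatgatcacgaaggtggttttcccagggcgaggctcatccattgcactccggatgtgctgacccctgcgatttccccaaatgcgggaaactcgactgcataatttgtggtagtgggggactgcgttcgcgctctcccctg
Rnu1b6 (U1, chr3:96460024-96460189, minus strand): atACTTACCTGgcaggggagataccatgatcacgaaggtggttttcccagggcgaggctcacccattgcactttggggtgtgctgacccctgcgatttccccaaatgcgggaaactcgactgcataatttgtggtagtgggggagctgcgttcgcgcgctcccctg
Gm25890 (U1, chr3:96486555-96486719, minus strand): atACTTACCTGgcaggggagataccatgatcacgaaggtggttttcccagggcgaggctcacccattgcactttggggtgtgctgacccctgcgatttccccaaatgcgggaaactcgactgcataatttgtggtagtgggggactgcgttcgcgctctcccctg
Gm25939 (U2, chr1:72255008-72255198, plus strand): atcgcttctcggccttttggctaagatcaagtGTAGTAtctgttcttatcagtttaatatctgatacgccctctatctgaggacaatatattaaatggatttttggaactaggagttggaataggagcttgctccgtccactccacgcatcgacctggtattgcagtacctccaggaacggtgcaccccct
Gm22973 (U2, chr12:59040335-59040525, plus strand): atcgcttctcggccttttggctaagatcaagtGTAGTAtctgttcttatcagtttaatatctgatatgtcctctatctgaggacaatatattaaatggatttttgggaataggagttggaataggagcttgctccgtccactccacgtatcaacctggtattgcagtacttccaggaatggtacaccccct

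Over their aligned length, Gm22513 was 97.0% identical to Rnu1b6 and Gm25890 was 99.4% identical. Gm26232 and Gm24830 had the same 166 bases as Rnu1b6, and Gm22614 had the same 165 bases as Gm25890. These 5 U1 genes lie within chr3:96328425-96488893, and Gm22513 lies alone on chromosome 12. The U2 copies Gm25939 and Gm22973 were 98.4% and 95.3% identical to Rnu2-10. All the printed U1 copies carry the unaltered 5′ splice site stretch, and both U2 copies carry the unaltered branch point stretch.

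The copy with the most reads in B6N, Gm22513, had 21.1, 10.7 and 18 CPM in matBFMI, 29, 13.5 and 18.4 CPM in patBFMI, 0.25 and 1 CPM in BFMI and 81.9 and 104 CPM in B6N. Gm25939 had 28.1, 20.1 and 20.5 CPM in matBFMI, 25.7, 21.9 and 27.9 CPM in patBFMI, 2.47 and 4.77 CPM in BFMI and 73.9 and 85.5 CPM in B6N. For both copies the F1 livers lay between the strains and below mid-parent. Gm22973 was at 2.48 to 9.99 CPM in the F1 livers, 0.302 and 1.18 CPM in BFMI and 17.4 and 17 CPM in B6N. The 5 copies on chromosome 3 were low throughout, at 0.106 to 1.08 CPM in F1 livers, 0.0729 to 0.412 CPM in BFMI and 1.89 to 2.89 CPM in B6N. Another 27 autosomal snRNA genes at the floor did not meet the rule, and their BFMI mean was 0.238 to 0.895 of the B6N mean (median 0.759), while for the 8 genes of the set it was 0.0067 to 0.130.

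Small noncoding RNA varied between libraries of the same group. The 27 other snRNA genes summed to 632, 366 and 442 CPM in matBFMI, to 809, 456 and 523 CPM in patBFMI, to 543 and 964 CPM in the BFMI male and female, and to 910.3 and 1171 CPM in the B6N male and female. In each group the library with the most of this RNA was also the one with the most Gm10800, which was at 3304, 125 and 47.1 CPM in matBFMI, 16075, 273 and 164 CPM in patBFMI, 9329 and 13508 CPM in BFMI and 16229.9 and 23249.8 CPM in B6N. The sum over the 8 snRNA genes was 3.67 CPM in the BFMI male and 8.53 CPM in the BFMI female. It was at most 65.5 CPM in the F1 livers and 184 and 219 CPM in the B6N livers. The low BFMI sums follow from the rule that chose these genes. Of 35 autosomal snRNA genes at the floor, both B6N libraries exceeded both BFMI libraries for 18, and the reverse held for 0. Over all 12319 autosomal genes at the floor, both B6N libraries exceeded both BFMI libraries for 20.9%. The part of library composition in these values was not tested.

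**Figure D4:**
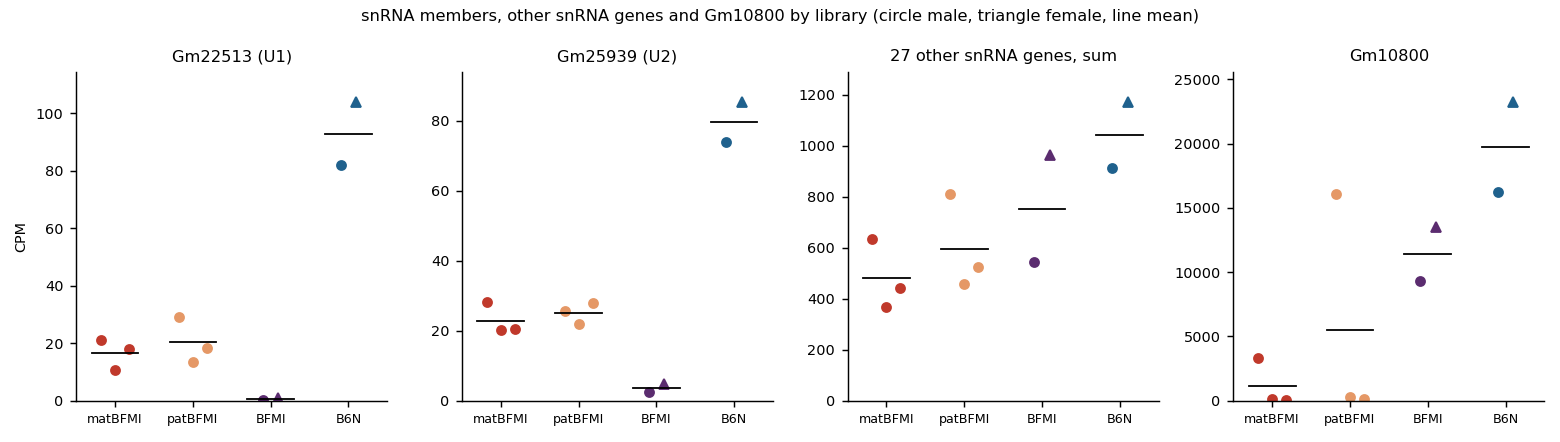
Levels in CPM (y axis, linear, from 0) of the U1 copy Gm22513, the U2 copy Gm25939, the sum of the 27 other snRNA genes and Gm10800 in matBFMI, patBFMI, BFMI and B6N livers (x axis); points are libraries, circles males, triangles females, lines means. Both BFMI livers are at most at 4.77 CPM for the 2 snRNA copies, while the 27 other snRNA genes reach 543 and 964 CPM in the same livers.

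Some processed pseudogenes were in the set together with a source gene. Such copies arise from reverse transcribed messenger RNA, and reads from a nearly identical parent can be counted on them. Fabp5 stands with 4 of its pseudogenes, Gm6166, Gm14328, Gm13998 and Gm6100, of which Gm6166 was 98.8% identical to the 408 base open reading frame of Fabp5 over 407 bases. Bases 121 to 180 of that reading frame are shown for Fabp5 and 3 of these copies because Gm6166 cannot be told from Fabp5 here and the other 2 can, with capitals for the bases that differ from Fabp5.
Fabp5 (chr3:10012548-10016607, plus strand): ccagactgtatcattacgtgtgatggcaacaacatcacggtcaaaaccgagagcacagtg
Gm6166 (chr9:57483963-57484371, plus strand): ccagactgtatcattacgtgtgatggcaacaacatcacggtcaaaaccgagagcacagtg
Gm13998 (chr2:119878069-119878403, minus strand): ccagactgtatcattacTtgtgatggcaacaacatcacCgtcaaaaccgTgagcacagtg
Gm6100 (chr8:34307285-34307687, minus strand): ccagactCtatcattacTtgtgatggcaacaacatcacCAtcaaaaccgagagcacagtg

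In this stretch Gm6166 differed from Fabp5 at 0 bases, Gm13998 at 3 and Gm6100 at 4. The intronless copy Gm6166 had 21.1, 32.6 and 52.8 CPM in matBFMI, 38.5, 54.1 and 48.7 CPM in patBFMI, 5.77 and 20.4 CPM in BFMI and 103 and 114 CPM in B6N, which was 75.9% to 213.9% of the Fabp5 value of the same library. Gm14328 held 13.7% to 26.6% of the Fabp5 value, Gm13998 held 0.912% to 4.25% and Gm6100 held 0.678% to 3.09%. Fabp5 and the 4 copies together amounted to 45.3, 63.4 and 105 CPM in matBFMI, 78.6, 114 and 100.4 CPM in patBFMI, 9.38 and 34.2 CPM in BFMI and 260.5 and 256 CPM in B6N. Socs2 likewise stood with its copy Gm9847, 99.5% identical over 597 bases, which held at least 10.2% of the Socs2 value in each library. Of the 84 genes, 36 had another gene with at least 95% identity over at least 100 bases, and for 16 of them the best match was itself in the set, so the 84 genes are not 84 independent measurements. In addition 27 overlapped another gene in the annotation, 20 of them on the opposite strand.

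Whether the direction of the cross changed the level of these genes was asked by comparing matBFMI with patBFMI livers, the contrast for which the crosses were made. The quasi-likelihood test of edgeR was run over 16797 genes that had a minimum of 10 reads in no fewer than 3 F1 libraries, and 67 of the 84 genes were among them. In the set 1 gene was lower in matBFMI at an adjusted p under 0.05, where 0.0476% of all tested genes were lower, and 0 were higher, where 0.0953% of all tested genes were higher (0.143% in either direction). At an unadjusted p under 0.05, 5 genes of the set were lower and 2 higher, while 9.85% of all tested genes were past this limit. The median log2 difference was -0.11 over the 67 genes and -0.01 over all tested genes. The median of the set depended on single libraries. Without patBFMI 1 it was 0.0056, against 0.0055 over all tested genes, and without patBFMI 2 it was -0.25, against -0.0061. No shift of the set is therefore read from these medians. DESeq2 called 2 genes of the set lower, where 0.78% of all tested genes were lower, and 1 higher, where 1.05% were higher.

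The gene called was Adgrf1 (ENSMUSG00000041293, chr17:43270329-43324737, plus strand), an adhesion G protein-coupled receptor also known as GPR110. Its level was 4.73, 5.74 and 7.83 CPM in matBFMI livers and 13, 14 and 12.1 CPM in patBFMI livers, and the groups did not overlap. The BFMI male and female had 0.219 and 0.569 CPM and the B6N male and female 26.2 and 22.2 CPM. Adgrf1 fell by 1.19 on the log2 scale in matBFMI relative to patBFMI (SE 0.17, edgeR adjusted p = 0.0452), that is to 6.1 ± 1.58 CPM in matBFMI against 13 ± 0.942 CPM in patBFMI (SD, n = 3 each). The call was close to the threshold. The edgeR adjusted p was 0.0913 without matBFMI 1, 0.129 without matBFMI 2, 0.123 without patBFMI 1, 0.0665 without patBFMI 2 and 0.0769 without patBFMI 3, and it was 0.0427 without matBFMI 3. Over all alternatives it ranged from 3.4e-15 with no filter beyond 1 count to 0.463 with limma on RPKM at a pseudocount of 1, with the same direction in each.

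Among genes that did not pass the test, Pctp had 58.7, 65.3 and 71.9 CPM in matBFMI and 39.5, 45.7 and 37.9 CPM in patBFMI without overlap. On CPM by column sum, all matBFMI livers were above its mid-parent level of 53.6 CPM and all patBFMI livers below it. The same was so for 3.45% of the 12319 genes at the floor, while 0.406% had the reverse arrangement. With TMM factors (0.893 for patBFMI 2), patBFMI 2 lay slightly above the mid-parent level of Pctp. The log2 difference was 0.58 (SE 0.12) with an edgeR adjusted p of 0.135, and DESeq2 gave an adjusted p of 0.0015. Pparg, the nuclear receptor that drives adipocyte differentiation and is raised in fatty livers, had 3.35, 2.28 and 4.85 CPM in matBFMI, 2.12, 1.98 and 1.8 CPM in patBFMI, 0.594 and 0.294 CPM in BFMI and 6.16 and 3.72 CPM in B6N. The F1 groups did not overlap, and the log2 difference of 0.74 (SE 0.26) had an edgeR adjusted p of 0.392. Of the 67 genes, 4 were higher in all matBFMI than in all patBFMI libraries (Pctp, Pparg, Cebpe and Gm26782) and 1 was lower (Adgrf1). Over all tested genes the shares were 15.2% and 3.58%. These counts were made on CPM by column sum. With library size only, the median log2 difference over all tested genes was 0.08, against -0.01 with TMM. Nothing about the set is therefore read from these counts. Fabp5 had a log2 difference of -0.62 (SE 0.25, edgeR adjusted p = 0.462) and Igfbp2 one of -0.61 (SE 0.24, edgeR adjusted p = 0.447), both with overlapping groups.

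**Figure D5:**
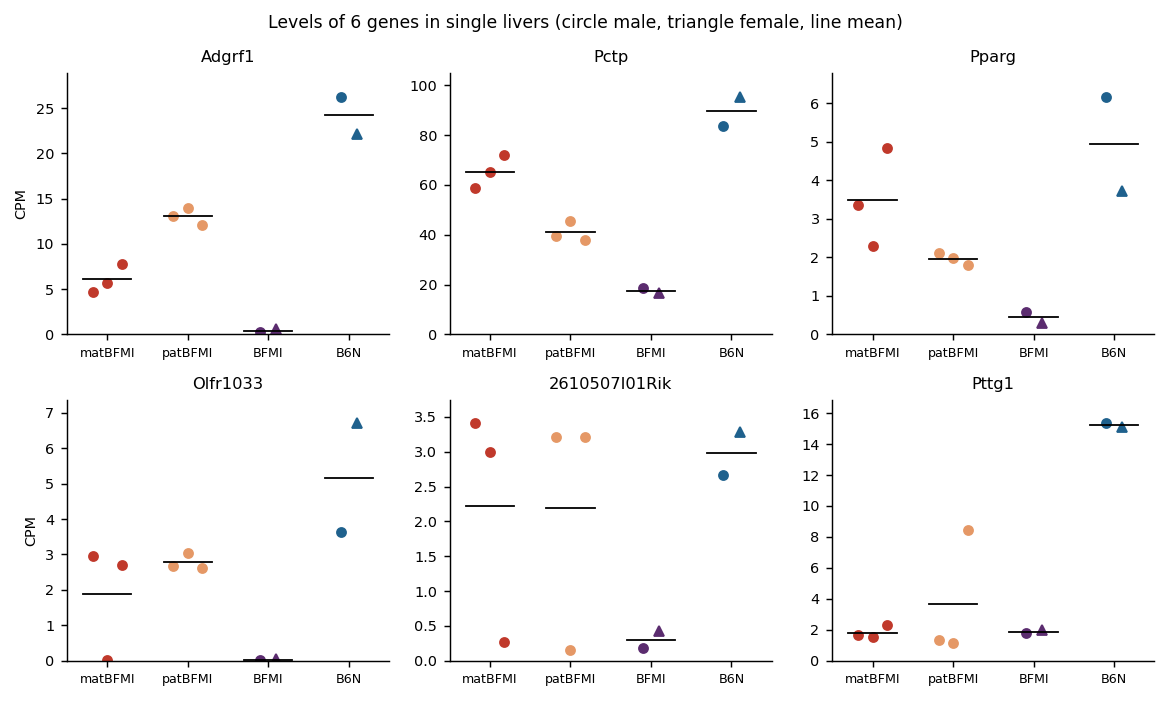
Levels in CPM (y axis, linear, from 0) of 6 genes in matBFMI, patBFMI, BFMI and B6N livers (x axis); points are libraries, circles males, triangles females, lines means. Adgrf1 is lower in all 3 matBFMI than in all 3 patBFMI livers, and Olfr1033 is at 0.0177 CPM in matBFMI 2 and at 2.63 to 3.05 CPM in the other 5 F1 livers.

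For a pair of genes, 1 or 2 F1 animals were at the BFMI level while the others were far above it. Olfr1033, an olfactory receptor gene on chromosome 2 (chr2:86020633-86045171, plus strand), had 2.95, 0.0177 and 2.71 CPM in matBFMI, 2.67, 3.05 and 2.63 CPM in patBFMI, 0.0104 and 0.0392 CPM in BFMI and 3.64 and 6.7 CPM in B6N. The matBFMI 2 liver was at the BFMI level and the other 5 F1 livers were between the strains. The neighbouring Olfr1032, at 95.3% identity over 964 bases, was at most at 0.255 CPM in any library. The processed transcript 2610507I01Rik on chromosome 11 (chr11:59199836-59202385, minus strand) had 3.41, 2.99 and 0.271 CPM in matBFMI, 3.22, 0.157 and 3.21 CPM in patBFMI, 0.177 and 0.432 CPM in BFMI and 2.67 and 3.28 CPM in B6N. Here matBFMI 3 and patBFMI 2 were at the BFMI level and the other 4 F1 livers were at the B6N level. Gaps of at least 8 times between neighbouring values of the 6 F1 libraries, of any pattern, were found in 23 autosomal genes, these 2 among them. That is 0.198% of 11625 autosomal genes with a highest F1 value of at least 2 CPM. The 23 include other patterns, such as Gm10800, high in matBFMI 1 and patBFMI 1, and Myh4, high in matBFMI 1. Nothing about the set is therefore read from this share.

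Neighbouring genes of the set were few beyond the duplicated clusters. Runs of at least 3 genes with neighbours within 1 Mb were the U1 copies and the amylases on chromosome 3, the trypsinogens on chromosome 6, and Gm26880, Zfp982 and Fbxo44 at the distal end of chromosome 4. Zfp982, a zinc finger gene, had F1 values of 1.71 to 3 CPM, with 0.323 and 0.177 CPM in BFMI and 6.67 and 4.19 CPM in B6N, and Fbxo44, an F-box gene, had F1 values of 0.548 to 1.15 CPM, with 0.125 and 0.0785 CPM in BFMI and 1.78 and 1.38 CPM in B6N. The F1 mean positions of the 3 neighbours were 0.031, 0.44 and 0.48, so they did not share a position. Remaining genes below 10 CPM in B6N included Capn3, a calpain best known from muscle, with 1.02 to 1.24 CPM in F1 livers, 0.302 and 0.157 CPM in BFMI and 3.64 and 3.89 CPM in B6N. Atp4a, the catalytic subunit of the gastric proton pump, had 0.421 to 0.705 CPM in F1 livers, 0.271 and 0.235 CPM in BFMI and 1.31 and 1.36 CPM in B6N. In both, every F1 liver was below mid-parent.

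Of the genes not described singly, the protein coding ones were Arhgef16, Btbd11, Disp2, Spsb4, Ube2u and 1700001C19Rik. Their mean F1 positions were 0.39, 0.13, 0.31, 0.37, 0.39 and 0.52 in that order, and their levels in B6N were between 1.69 and 7.15 CPM. The pseudogenes were Gm5345, Gm12261, Gm15526 and Gm17669, with F1 mean positions of 0.50, 0.54, 0.31 and 0.55. Gm17669 was 98.0% identical to Rpl29 over 442 bases, and for Gm15526 the match was Gm5561 at 99.0%, so that a ribosomal protein or other parent gene may lend them reads. The antisense RNAs were Gm14097, Gm11131 and Gm26782, which overlap Shld1, H2-Q4 and Tep1, and the other noncoding RNAs were 4930412C18Rik and 9430037G07Rik. Gm14097 had 1.67, 1.47 and 3.86 CPM in matBFMI, 3.61, 0.803 and 2.61 CPM in patBFMI, 0.281 and 0.588 CPM in BFMI and 4.22 and 4.62 CPM in B6N.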

How the data were processed

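Paired end RNA-seq of 10 mouse livers was analysed from the tables the authors deposited: raw counts of reads per Ensembl gene, and RPKM values computed by the authors after quantile normalization. The sample records name mm10, Trimmomatic 0.32, TopHat2 2.10, Bowtie2 2.2.6 and Picard 1.99, whereas the paper names BWA. The records give polyA RNA as molecule and a RiboZero protocol. Strand use in counting is not given in the sources used here. Of the 13 columns in both files, 3 have no sample record and were not used. Groups came from the sample titles. P-values measure the spread between these animals.

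Genes were matched by identifier to GENCODE M21 (40254 of 41388). CPM was the count divided by the column sum. The F1 groups were tested with edgeR 4.0.16 in R 4.3.3 (TMM, Benjamini-Hochberg adjustment, threshold 0.05), for genes reaching 10 reads in 3 or more libraries, and the procedure was tested on simulated data. The biological coefficient of variation was 15.9%. Transcripts were compared with BLAST 2.17.0 and Biopython 1.88, and the other steps used matplotlib 3.10.9, numpy 2.4.6, pandas 2.3.3 and Python 3.11.15. Alternatives were TMM scaling, the RPKM (limma 3.58.1, pseudocounts 1 and 0.1), DESeq2 1.42.0, other folds, floors and filters, male parents only, each library left out in turn, and a replicate block by offspring number.

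The genes and lists were chosen with earlier results of these data known. Named genes are the 15 of highest B6N level, those that pass the F1 test, those on a marker list, the extremes of F1 position with a B6N mean of at least 2 CPM, those next to the threshold, those in runs, the 8 of widest F1 spread and up to 4 per family. Others were named after their values were seen.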

Additional observations from a re-analysis of the deposited data

Results flagged for a closer look

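Pctp, the phosphatidylcholine transfer protein gene, stood on opposite sides of mid-parent in the reciprocal crosses on CPM by column sum, which is what singled it out. Its level was 58.7 to 71.9 CPM in matBFMI livers and 37.9 to 45.7 CPM in patBFMI livers, with the mid-parent level at 53.6 CPM, and the ratio of the means of matBFMI over patBFMI was 1.59. The difference in position relative to mid-parent was not tested as such. With TMM factors (0.893 for patBFMI 2), patBFMI 2 lay slightly above mid-parent, so the arrangement depends on the scaling. The test of matBFMI against patBFMI gave an edgeR adjusted p of 0.135. Among 12319 autosomal genes at the floor, 3.45% had all matBFMI livers above and all patBFMI livers below mid-parent, and 0.406% had the opposite.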

How the results depend on the processing

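The number of genes that met the rule was 81 with TMM scaling (79 shared with the 84), 71 with RPKM (53 shared), 107 at 3-fold, 61 at 6-fold, 99 at a floor of 0.5 CPM and 58 at a floor of 2 CPM. Leaving out 1 inbred library gave 101 to 146 genes, with 146 without the B6N male. These sets include the 84 by construction, because leaving out a library can only loosen the rule. The median F1 position was 0.33 with TMM and 0.31 with male parents only. It moved to 0.092 with RPKM, to 0.50 on log2(CPM + 0.5) and to 0.36 without the pancreatic enzyme genes, an alternative chosen after seeing the data, and the cause was not tested for the first pair. Without 1 F1 library it was 0.27 to 0.31. The number of genes with all F1 libraries below mid-parent was 40 with TMM, 46 with RPKM and 43 with male parents only. It was 46 to 49 without 1 F1 library and 30 without the pancreatic enzyme genes. Without matBFMI 1 and patBFMI 1, an alternative also chosen after seeing the data, it was 52. Leaving out F1 libraries can only keep or raise this number.

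Genes of the set called between matBFMI and patBFMI numbered 3 with DESeq2, 11 with no filter beyond 1 count, 0 with at least 50 counts in 3 libraries, 0 with limma on RPKM at a pseudocount of 1 and 0 at 0.1, and 0 to 1 without 1 F1 library. The cause was not tested. With size factors or library size only it was 1. Over all genes tested the calls numbered 24, against 307 with DESeq2, 696 with no filter and 2 with limma on RPKM. The offspring number shared by the titles was not treated as a pairing. The correlations of the deviations of same-numbered animals were 0.303, -0.057 and 0.105. For differently numbered animals they were -0.305 to 0.233, and so few values cannot decide whether the numbers pair the animals. With the offspring number as a replicate block, 1 gene of the set was called and 175 genes in all. Low genes rest on few reads, so their positions also carry counting error.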
